A study of Mus musculus with 16 samples.

Results

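Markers of the liver sinusoidal endothelial cell were followed across the livers of mice with and without Zfp36l1 on a control or an ethanol diet. The 10 genes were Stab1, Stab2, Lyve1, Clec4g, Kdr, Pecam1, Cdh5, Gata4, Wnt2 and Rspo3, each taken by its symbol from the 35275 gene IDs of the deposited table. All 10 passed the filter on low values (FPKM of at least 1 in at least 4 of 16 libraries), as did 11298 genes in all. FPKM is the number of sequenced fragments scaled to the length of the gene and to the depth of the library. Total RNA of liver was sequenced in 4 groups of 4 libraries. These were wild-type (WT) mice on the control diet, WT mice on the ethanol diet, mice with a liver-specific knockout of Zfp36l1 (LKO) on the control diet, and LKO mice on the ethanol diet. The promoter that drove the deletion, the cell types it reached, and the strain, the age and sex of the mice, the make-up of the diets and how long they were fed are not given in the labels used here. Each library has a title number of its own, but the labels do not state that each came from a separate animal, so p-values measure the spread between these libraries, which may be technical in part.

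Sinusoidal endothelial cells line the blood channels between plates of hepatocytes. They lack a continuous basement membrane, are perforated by pores, and clear waste molecules from blood through scavenger and lectin receptors such as the stabilins, Lyve1 and Clec4g. Gata4 is the transcription factor that keeps them in this sinusoidal state, as opposed to that of a continuous capillary. Endothelial cells near the central vein secrete WNT ligands and Rspo3, which sustain the programme of the surrounding pericentral hepatocytes, among them the enzymes Glul and Cyp2e1. The product of Zfp36l1 attaches to AU-rich stretches in the 3' untranslated region of messenger RNAs and promotes their decay. Several of the 10 genes are not restricted to these cells. Kdr, Pecam1 and Cdh5 are expressed in endothelium of all vessels, Lyve1 also in lymphatic vessels, and Gata4 also in hepatocytes.

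The AU-rich heptamer TATTTAT (the DNA form of the element bound by the Zfp36 family) was searched on the transcript strand of annotated 3' untranslated regions. For each gene 1 region was searched, the longest among its protein-coding transcripts. It was found in 4 of the 10 genes, once each in Kdr, Wnt2 and Rspo3 and 2 times in Pecam1. The matches are shown with 8 bases on either side, 5' to 3' on the transcript strand, with the heptamer in capitals. All lie on the minus strand of GRCm38, at chr5:75933175-75933181 (Kdr), chr11:106655039-106655045 and chr11:106654405-106654411 (Pecam1), chr6:17989212-17989218 (Wnt2) and chr10:29452922-29452928 (Rspo3).
Kdr: ggcacatcTATTTATagtctgtt
Pecam1, first: tgtgcacgTATTTATgagcctgt
Pecam1, second: tttttcttTATTTATtccccact
Wnt2: ttattggaTATTTATtggctatt
Rspo3: ctaggagaTATTTATtgtttttc
Of 10529 kept genes with an annotated 3' untranslated region, 29.1% held the heptamer. Among kept genes with a region within 1.5 times the length of that of the gene in question, the share was 34.8% for Kdr, 23.6% for Pecam1, 22.7% for Wnt2 and 35.7% for Rspo3. Stab1, Stab2, Lyve1, Clec4g, Cdh5 and Gata4 held no match in the region searched.

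Promoters (250 bases before to 50 after the start of the gene, from RefSeq on GRCm38.p6) were matched for 5 of the 10 genes, Clec4g, Kdr, Stab1, Stab2 and Wnt2. Those of Wnt2, the gene most often called between diets, and of Clec4g, the most abundant of the 10, are shown on the strand of the gene, 5' to 3'. Both genes lie on the minus strand, and the windows are chr6:18030396-18030695 and chr8:3720602-3720901. Capitals mark a GATA motif (AGATAA or TGATAA) or an ETS motif (AGGAAG or CGGAAG), searched on both strands. GATA motifs are bound by factors such as Gata4, and ETS motifs by factors that are active in endothelium.
Wnt2: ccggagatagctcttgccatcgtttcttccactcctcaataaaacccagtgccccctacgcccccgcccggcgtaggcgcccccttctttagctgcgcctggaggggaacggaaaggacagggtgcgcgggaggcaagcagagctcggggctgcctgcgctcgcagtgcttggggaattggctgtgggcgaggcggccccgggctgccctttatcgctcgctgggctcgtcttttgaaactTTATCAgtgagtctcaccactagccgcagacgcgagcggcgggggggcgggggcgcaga
Clec4g: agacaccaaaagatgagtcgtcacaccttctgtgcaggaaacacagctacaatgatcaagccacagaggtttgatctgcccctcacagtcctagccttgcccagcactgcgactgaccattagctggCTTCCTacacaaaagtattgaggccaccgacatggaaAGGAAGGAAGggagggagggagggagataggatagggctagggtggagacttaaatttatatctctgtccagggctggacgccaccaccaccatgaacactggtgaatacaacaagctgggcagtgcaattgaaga
The Wnt2 window held a single GATA match, TGATAA on the opposite strand 9 bases before the start, and no ETS match. This RefSeq start (18030445) lies 140 bases inside the gene as given further on from GENCODE, whose end on the minus strand is 18030585. The RefSeq start lay 83 bases inside for Stab2 and 3 for Kdr, and was the same for Clec4g and Stab1. The Clec4g window held 3 ETS matches and no GATA match. The first of its 3 ETS matches began 123 bases before the start, on the opposite strand, and the other two, which begin 86 and 82 bases before it, overlap by 2 letters. Stab1 held 2 ETS matches, Stab2 1 and Kdr none, and none of these 3 windows held a GATA match. Of 32851 RefSeq promoters of this length, 18.6% held a GATA match and 46.5% an ETS match.

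WT ethanol library 2 stood apart from the other 15 libraries. It held 9886968 reads against 19069871 to 24768539, its mitochondrial reads made up 22.52% against 3.64 to 6.97%, and its FPKM summed to 816466 against 498052 to 568142. Its Spearman correlation across genes with other libraries was 0.664 to 0.721, against at least 0.858 among the 15. Ddx3y, a gene of the Y chromosome, gave 65 reads in it and at most 5 in any other library, and haemoglobin Hba-a1 stood at 1025 FPKM against 34.3 to 98.7. The comparisons are therefore given with all 16 libraries and with the 15. Among the 15, libraries 1 and 2 of each group lay on one side of the first component of within-group variation, which held 40% of that variance, and libraries 3 and 4 on the other. The labels name no batch for this division. The label check held in all libraries, with Zfp36l1 at 9.3 to 25.5 FPKM in the 8 WT libraries and at 0.572 to 1.76 in the 8 LKO libraries.

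In WT livers on the control diet, the lectin receptor Clec4g was the most abundant of the 10, at 33.3 ± 14.8 FPKM (SD, n = 4). It was followed by Stab2 at 6.91 ± 0.901, Stab1 at 5.84 ± 1.31, Kdr at 5.75 ± 1.08 and Pecam1 at 4.66 ± 1.38 FPKM. Cdh5 stood at 4.08 ± 0.15, Gata4 at 4.06 ± 0.728, Lyve1 at 3.02 ± 0.645, Rspo3 at 1.93 ± 0.618 and Wnt2 at 1.13 ± 0.422 FPKM. The lowest Clec4g library lay above the highest Stab2 library, whereas each later pair of neighbours in this order overlapped. Wnt2 was the least deeply counted of the 10, with 29 to 145 reads per library. In the 15 libraries other than WT ethanol library 2, no other marker had fewer than 56 reads, the lowest value of Rspo3. In WT ethanol library 2, Clec4g had 41 reads, Lyve1 35, Cdh5 29, Gata4 16 and Rspo3 3, and the last value is at the limit that a count of 0 allows. Clec4g and Stab2, which mark sinusoidal endothelium more narrowly than Pecam1 or Cdh5, were thus detected in all 16 libraries. In RNA of bulk liver, fewer cells of a type and less RNA per cell cannot be told apart.

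**Figure D1:**
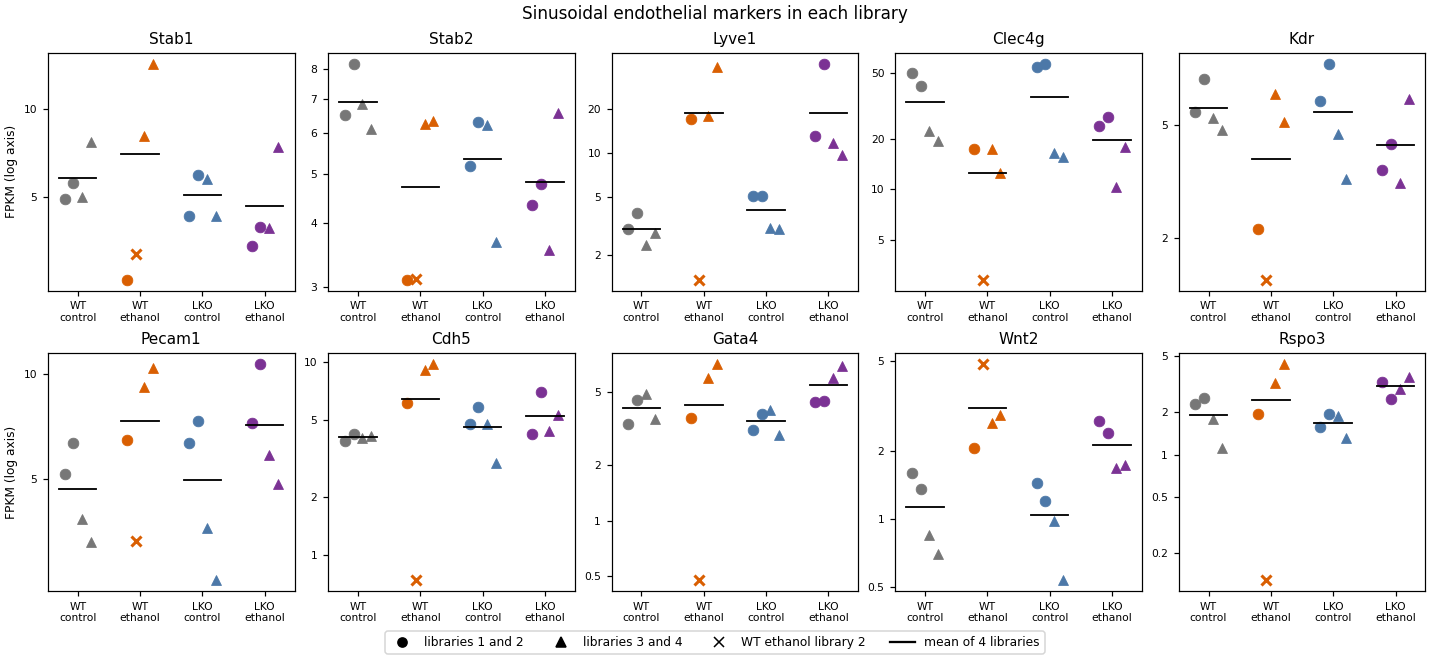
FPKM of the 10 markers in each library (log axis, a separate scale for each gene), by genotype and diet. Circles are libraries 1 and 2, triangles are libraries 3 and 4, the cross is WT ethanol library 2, and the line is the mean of the 4 libraries. Lyve1 and Wnt2 lie higher on ethanol in both genotypes, apart from the Lyve1 cross at 1.36 FPKM, and the cross is the lowest or nearly the lowest point of its group for each gene except Wnt2, where it is the highest at 4.84.

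The comparison of diets showed which markers differed between ethanol-fed and control-fed livers. Averaged over both genotypes, Lyve1 and Wnt2 were called higher with ethanol in the fit of 16 libraries, and 0 of the 10 were called lower by limma, although Clec4g had an unadjusted p of 0.0124 at a difference of -1.06. Without WT ethanol library 2, Lyve1, Wnt2, Cdh5, Pecam1, Rspo3 and Gata4 were called higher, 6 of the 10, and 0 lower (Clec4g at an unadjusted p of 0.0237). The stabilins, Clec4g and Kdr passed the threshold in neither of these fits. All differences are on the log2(FPKM + 1) scale, which understates the change of low genes, and SE stands for the limma standard error. A gene is called at a Benjamini-Hochberg adjusted p under 0.05 over all 11298 genes.

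The background of these counts was broad. Averaged over genotypes, 4.59% of all genes were called higher and 3.19% lower in 16 libraries, and 14.8% higher and 5.7% lower in 15. The markers called higher came to 2 of 10 and 6 of 10 in the same fits. The split of calls depended on the scaling, with 519 genes higher and 360 lower in 16 libraries but 583 and 741 after scaling by the median of ratios, and 1668 and 644 in 15 libraries but 1156 and 1099 after quantile normalization. In WT alone, 2.58% of genes were called higher and 1.59% lower in 16 libraries, with 1 of 10 markers higher (Wnt2). In 15 libraries the shares were 7.23% higher and 2.25% lower, with 3 markers higher (Lyve1, Cdh5 and Wnt2). In LKO alone, 0.168% of genes were called higher and 0.257% lower in 16 libraries, with 0 markers called by limma and 2 at an unadjusted p under 0.05. In 15 libraries the shares were 2.22% higher and 1.4% lower, with Lyve1 the 1 marker called. The median difference of the 10 markers averaged over genotypes was 0.18 in 16 libraries and 0.47 in 15, and that of all genes 0.02 and 0.11. In WT without that library, the median of all genes was 0.17, against which the differences in WT are to be read.

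**Figure D2:**
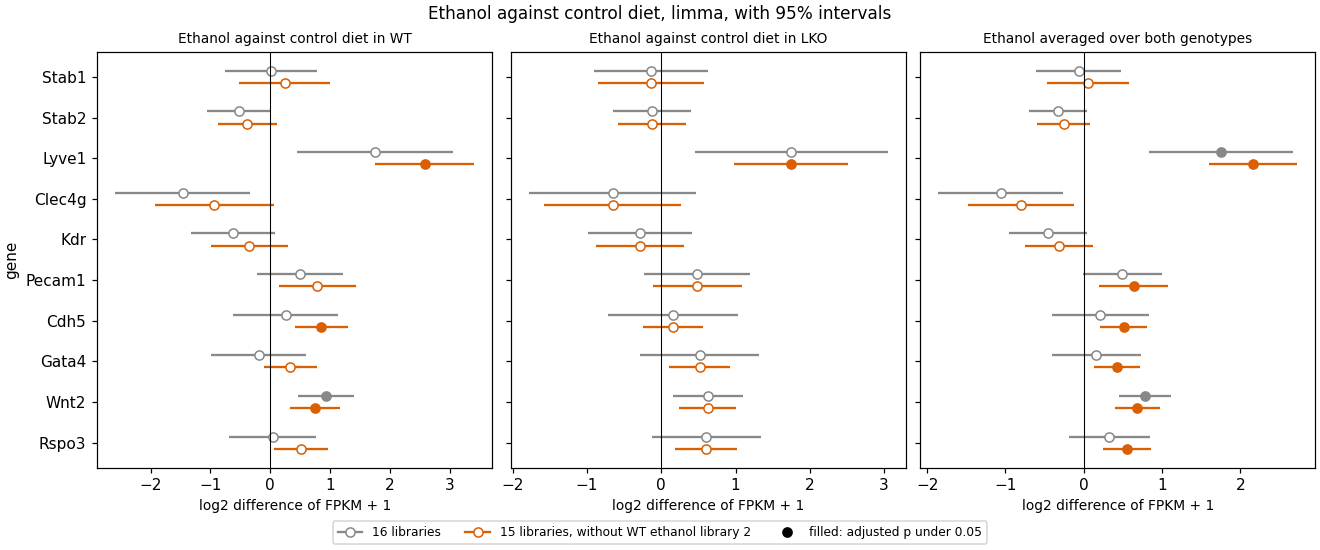
Difference between ethanol and control diet for the 10 markers (log2 of FPKM + 1, limma estimate with its 95% interval), in WT, in LKO and averaged over both. Grey shows the fit of 16 libraries and orange the fit of 15 without WT ethanol library 2, and filled points are called at an adjusted p under 0.05. Lyve1 lies farthest to the right, at 1.75 with 16 and 2.17 with 15 libraries averaged over genotypes, and Clec4g farthest to the left, at -1.06 and -0.80.

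Lyve1 (GRCm38, as for all positions that follow, chromosome 7, 110850607 to 110863239, minus strand) encodes a receptor for the matrix sugar hyaluronan. In WT on the control diet it stood at 3.02, 3.89, 2.35 and 2.83 FPKM in libraries 1 to 4, and on ethanol at 17.1, 1.36, 18.0 and 38.3. In LKO it stood at 5.11, 5.10, 3.08 and 3.04 FPKM on the control diet and at 13, 40.6, 11.7 and 9.65 on ethanol. All 4 LKO ethanol libraries lay above all 4 LKO controls, and 3 of the 4 WT ethanol libraries lay above all WT controls, with library 2 below them. The difference averaged over genotypes was 1.75 (SE 0.435, adjusted p = 0.0208) in 16 libraries and 2.17 (SE 0.265, adjusted p = 0.000159) in 15. Without LKO ethanol library 2, the highest library, the averaged difference was 1.53 and the call was lost (adjusted p = 0.052). In 16 libraries the averaged call was also lost with no filter on low values (adjusted p = 0.0689) and after scaling to equal sums (adjusted p = 0.0509). In WT the difference was 1.75 (SE 0.615, adjusted p = 0.12) in 16 libraries and 2.58 (SE 0.389, adjusted p = 0.00244) in 15. In LKO it was 1.75 with an adjusted p of 0.304 and of 0.0177, with the same libraries in the contrast and the spread estimated over 16 and over 15. As a ratio of mean FPKM this was 4.59-fold in LKO (2.8-fold without LKO ethanol library 2) and 8.10-fold in WT without library 2, for which the exact permutation test gave p = 0.0286 in each, the smallest that 4 libraries against 4, or 3 against 4, can give. Within libraries 1 and 2 the averaged difference was 2.01 and within libraries 3 and 4 it was 2.23, in 15 libraries.

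Stab1 and Stab2 are large scavenger receptors that take up oxidised lipoproteins and matrix fragments. Stab2 (chromosome 10, 86841198 to 87008025, minus strand) stood at 6.51, 8.19, 6.82 and 6.11 FPKM in WT on the control diet and at 3.10, 3.11, 6.26 and 6.32 on ethanol. In LKO it ranged from 3.68 to 6.29 FPKM on the control diet and from 3.55 to 6.57 on ethanol. The groups overlapped in both genotypes. The averaged difference was -0.33 (95% interval -0.70 to 0.04, adjusted p = 0.306) in 16 libraries and -0.26 (-0.60 to 0.08, adjusted p = 0.273) in 15. With 15 libraries it was called lower after quantile normalization (-0.41, adjusted p = 0.0345) and after scaling by the median of ratios (-0.39, adjusted p = 0.0352). Within libraries 1 and 2 the averaged difference of Stab2 was -0.65 and within libraries 3 and 4 it was -0.01, in 15 libraries. Among its own 4 groups, Stab1 (chromosome 14, 31139013 to 31168641, minus strand) had the widest spread in WT on ethanol, with 2.61, 3.19, 8.12 and 14.3 FPKM in libraries 1 to 4. Its controls ranged from 4.30 to 7.75 FPKM over both genotypes, and LKO on ethanol from 3.41 to 7.41. The averaged difference was -0.07 (95% interval -0.61 to 0.48) in 16 libraries and 0.05 (-0.47 to 0.57) in 15, with adjusted p of 0.922 and 0.916. These means join opposite directions, since in 15 libraries Stab1 differed by -0.59 within libraries 1 and 2 and by 0.40 within libraries 3 and 4. Stab1 overlaps Nt5dc2, a gene on the opposite strand with up to 12.1 FPKM, and whether the counting used strand is not given in the sources used here.

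Clec4g (chromosome 8, 3707064 to 3720651, minus strand), whose promoter is shown above, encodes a C-type lectin of sinusoidal endothelium. In WT it stood at 49.9, 41.5, 22.3 and 19.4 FPKM on the control diet and at 17.4, 2.87, 17.5 and 12.5 on ethanol. In LKO it stood at 54.3, 56.5, 16.4 and 15.7 FPKM on the control diet and at 23.9, 27.1, 10.3 and 17.9 on ethanol. In WT all ethanol libraries lay below all controls, whereas in LKO the groups overlapped. In both control groups, libraries 1 and 2 lay well above libraries 3 and 4. The averaged difference was -1.06 (SE 0.379, adjusted p = 0.0985) in 16 libraries and -0.80 (SE 0.318, adjusted p = 0.089) in 15. Within libraries 1 and 2 it was -1.22 and within libraries 3 and 4 it was -0.34, in 15 libraries. The averaged difference passed the threshold, as lower, in 4 of 14 alternatives. With 16 libraries these were quantile normalization (-1.07, adjusted p = 0.0461), the median of ratios (-1.13, adjusted p = 0.0494) and array weights (-1.08, adjusted p = 0.00882). The fourth was the fit of 15 libraries with a term for the division, at -0.71 (SE 0.175, adjusted p = 0.00741), in which 23.3% of all genes were called higher and 9.32% lower. That division was taken from the within-group variation of these same libraries, so that its term can lower the spread left in the fit.

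Pecam1, Cdh5 and Kdr are carried by endothelium of all vessels. Cdh5 (chromosome 8, 104101625 to 104144511, plus strand), the cadherin of endothelial junctions, stood at 3.88, 4.23, 4.05 and 4.15 FPKM in WT on the control diet and at 6.11, 0.736, 9.09 and 9.78 on ethanol. In LKO it stood at 4.77, 5.86, 4.79 and 2.98 FPKM on the control diet and at 4.26, 6.97, 4.37 and 5.34 on ethanol. Without library 2, the WT groups did not overlap, whereas the LKO groups did. The difference in WT was 0.25 (SE 0.416, adjusted p = 0.773) in 16 libraries and 0.86 (SE 0.206, adjusted p = 0.0194) in 15, where the ratio of mean FPKM was 2.04. In LKO it was 0.16 (95% interval -0.24 to 0.57 in 15 libraries). The averaged difference was 0.21 (adjusted p = 0.749) in 16 libraries and 0.51 (adjusted p = 0.0192) in 15.

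Pecam1 (chromosome 11, 106654217 to 106750628, minus strand), an adhesion molecule of the endothelial surface whose 2 AU-rich matches are shown above, stood at 5.17, 6.36, 3.82 and 3.29 FPKM in WT on the control diet and at 6.48, 3.32, 9.19 and 10.4 on ethanol. In LKO it stood at 6.36, 7.34, 3.62 and 2.55 FPKM on the control diet and at 7.23, 10.7, 5.84 and 4.82 on ethanol. The LKO groups overlapped, and the WT groups were apart only without library 2. Between diets, averaged over genotypes, the difference was 0.49 (SE 0.24, adjusted p = 0.248) in 16 libraries and 0.63 (SE 0.208, adjusted p = 0.0424) in 15. In 15 libraries this call was lost after quantile normalization and after scaling by the median of ratios. Within libraries 1 and 2 the averaged difference was 0.24 and within libraries 3 and 4 it was 0.94, in 15 libraries.

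Kdr (chromosome 5, 75932827 to 75978458, minus strand), the main signalling receptor for VEGF, ranged from 3.23 to 8.25 FPKM over the 8 control libraries (median 5.45 in WT and 5.37 in LKO). On ethanol it stood at 2.15, 1.42, 6.46 and 5.13 FPKM in WT and at 3.48, 4.28, 3.13 and 6.17 in LKO. The diets overlapped in both genotypes. Averaged over genotypes, the difference was -0.46 (95% interval -0.96 to 0.04, adjusted p = 0.275) in 16 libraries and -0.32 (-0.76 to 0.12, adjusted p = 0.296) in 15. It did not have the same direction within the division of the libraries, with -0.98 in libraries 1 and 2 and 0.16 in libraries 3 and 4. Of 8 kept VEGF ligands and receptors other than Kdr, Flt1 was called higher and Nrp1 lower averaged over genotypes, in both fits, where 4.59% and 14.8% of all genes were called higher and 3.19% and 5.7% lower. Flt1, the receptor that binds VEGF with high affinity and dampens signalling through Kdr, rose by 0.49 (SE 0.121, adjusted p = 0.0209). It reached 1 FPKM in all 8 ethanol libraries and in 3 controls, so that passing the filter favoured a difference, and it fell short of the call without WT control library 1 or 4 or LKO control library 4 (adjusted p up to 0.0534) and after scaling to equal sums (adjusted p = 0.0871). The co-receptor Nrp1 fell by 0.71 (SE 0.179, adjusted p = 0.0235), and its call was lost in 4 of the 16 leave-one-out fits, each made without 1 library (adjusted p up to 0.0582). The list's median was -0.02 in 16 libraries and 0.00 in 15, beside 0.02 and 0.11 over all genes.

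Gata4 (chromosome 14, 63198922 to 63271692, minus strand) stood at 3.33, 4.52, 4.83 and 3.56 FPKM in WT on the control diet and at 3.58, 0.476, 5.89 and 7.03 on ethanol. LKO livers had 3.11, 3.80, 3.97 and 2.90 FPKM on the control diet and at 4.39, 4.43, 5.91 and 6.90 on ethanol. In LKO all ethanol libraries lay above all controls, and in WT the groups overlapped with or without library 2. Over both genotypes the difference was 0.16 (SE 0.267, adjusted p = 0.79) in 16 libraries and 0.42 (SE 0.141, adjusted p = 0.044) in 15. Gata4 differed by 0.095 within libraries 1 and 2 and by 0.64 within libraries 3 and 4, in 15 libraries. In 15 libraries the call was lost after quantile normalization, equal sums and the median of ratios. Gata6, a related factor, and Zfpm1, a partner of GATA factors, were the 2 of 7 listed GATA factors and partners that passed the filter, and neither was called. In 15 libraries their averaged differences were 0.25 (adjusted p = 0.274) and 0.04 (adjusted p = 0.95). Gata4 and Gata6 are also expressed in other liver cells, and these levels are those of bulk liver RNA.

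Wnt2 (chromosome 6, 17988940 to 18030585, minus strand), the WNT ligand whose promoter and AU-rich match are shown above, rose with ethanol. In WT it stood at 1.60, 1.36, 0.855 and 0.702 FPKM on the control diet and at 2.07, 4.84, 2.65 and 2.89 on ethanol. The LKO libraries stood at 1.44, 1.2, 0.985 and 0.537 FPKM on the control diet and at 2.71, 2.40, 1.68 and 1.74 on ethanol. In each genotype all ethanol libraries lay above all controls. Between diets, averaged over genotypes, the difference was 0.78 (SE 0.158, adjusted p = 0.00596) in 16 libraries and 0.69 (SE 0.134, adjusted p = 0.00279) in 15. The averaged call held in each of the 16 leave-one-out fits and under all 14 other alternatives (adjusted p up to 0.0313). In WT alone the difference was 0.93 (SE 0.223, adjusted p = 0.0268), a ratio of mean FPKM of 2.76, and 0.75 (adjusted p = 0.0283) in 15 libraries, a ratio of 2.25. In WT the call was lost without WT control library 2, 3 or 4 or WT ethanol library 4 (adjusted p up to 0.101) and in 7 of the 14 other alternatives. In LKO the difference was 0.62 (adjusted p = 0.316 in 16 libraries and 0.0719 in 15), a ratio of 2.05. Within libraries 1 and 2 the averaged difference was 0.46 and within libraries 3 and 4 it was 0.86, in 15 libraries.

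Rspo3 (chromosome 10, 29452416 to 29535867, minus strand) encodes a secreted protein that strengthens WNT signals by keeping the receptors on the cell surface. It stood at 2.28, 2.52, 1.78 and 1.12 FPKM in WT on the control diet and at 1.95, 0.127, 3.25 and 4.40 on ethanol. LKO livers had 1.56, 1.95, 1.87 and 1.31 FPKM on the control diet and at 3.29, 2.48, 2.92 and 3.59 on ethanol. In LKO all ethanol libraries lay above all controls, and in WT the groups overlapped. Averaged over genotypes, the difference was 0.32 (SE 0.245, adjusted p = 0.494) in 16 libraries and 0.56 (SE 0.145, adjusted p = 0.0139) in 15, and this call held under the 3 other scalings tried without WT ethanol library 2. Within libraries 1 and 2 it was 0.14 and within libraries 3 and 4 it was 0.85, in 15 libraries.

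Among 8 kept angiocrine factors (signals from endothelium to its neighbours) other than the 10 markers, Wnt9b and Hgf were called higher averaged over genotypes in both fits, and none lower, beside 4.59% of all genes called higher in 16 libraries and 14.8% in 15. Wnt9b, another WNT ligand of the central vein, stood at 0.186, 0.380, 0.0999 and 0.255 FPKM in WT on the control diet and at 1.21, 1.03, 0.993 and 1.37 on ethanol. The LKO libraries stood at 0.282, 0.193, 0.355 and 0.305 FPKM on the control diet and at 0.537, 0.483, 1.22 and 0.465 on ethanol. In each genotype all ethanol libraries lay above all controls. Over both genotypes the difference was 0.58 (SE 0.108, adjusted p = 0.00313) in 16 libraries and 0.60 (SE 0.106, adjusted p = 0.00153) in 15. It passed the filter only through 3 WT ethanol libraries and 1 LKO ethanol library, so that its selection favoured a difference between diets. Its call was lost in 0 of the 16 leave-one-out fits (adjusted p up to 0.00965) and in 0 of the 14 other alternatives (adjusted p up to 0.0107). WT ethanol library 2, at 1.03 FPKM, was among the libraries through which Wnt9b passed the filter. The leave-one-out fits and the fit of 15 kept the genes chosen in 16 libraries, so they do not test that selection. Hgf, a growth factor for hepatocytes that stellate cells also make, differed by 0.65 (adjusted p = 0.0388), and its call was lost in 10 of the 16 leave-one-out fits (adjusted p up to 0.0865) and in 7 of the 14 other alternatives (adjusted p up to 0.113). The list's median was 0.16 in 16 libraries and 0.30 in 15.

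Genes of pericentral hepatocytes that are known to be driven by WNT signals were counted beside their ligands. Of 10 kept pericentral genes, Glul, Cyp2e1 and Gulo were called lower averaged over genotypes and none higher in 16 libraries. In 15 libraries the same 3 were lower, and Slc1a4 and Tcf7 were higher. Over all genes, 3.19% were called lower in 16 libraries and 5.7% in 15, and the 2 of 10 higher are near the 14.8% called higher in 15. Glul, the glutamine synthetase of the hepatocytes next to the central vein, stood at 343.7, 314.2, 449.8 and 531.8 FPKM in WT on the control diet and at 50.3, 92.5, 149.1 and 172.6 on ethanol. LKO livers had 284.3, 312.6, 522.7 and 403.3 FPKM on the control diet and at 216.5, 87.8, 335.8 and 394.4 on ethanol. All WT ethanol libraries lay below all WT controls, and in LKO the groups overlapped. The averaged difference of Glul was -1.32 (SE 0.316, adjusted p = 0.0167) in 16 libraries and -1.29 (adjusted p = 0.0112) in 15.

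Cyp2e1, the pericentral enzyme that oxidises ethanol, ranged from 2142 to 4499 FPKM over the 8 controls. On ethanol it stood at 940.7, 1275.2, 1057.3 and 832.5 FPKM in WT and at 1546.5, 803.3, 2177.9 and 3009.5 in LKO. All WT ethanol libraries lay below all WT controls. In LKO the groups overlapped, with controls at 2278.7 to 4498.7 FPKM. Between diets, averaged over genotypes, the difference was -1.28 (SE 0.266, adjusted p = 0.00707) in 16 libraries and -1.33 (adjusted p = 0.00305) in 15, and that of Gulo, the last enzyme of vitamin C synthesis, was -1.12 (adjusted p = 0.0122) and -0.91 (adjusted p = 0.00142). The averaged calls of Glul, Cyp2e1 and Gulo held in each of the 16 leave-one-out fits and under all 14 other alternatives (adjusted p up to 0.0472). Of 17 kept WNT and R-spondin receptors and feedback genes, 0 were called by limma in 16 libraries and 2 had an unadjusted p under 0.05. In 15 libraries Lgr5, the receptor for R-spondins, was called lower, by -0.53 averaged over genotypes (adjusted p = 0.026) and by -0.91 in WT (adjusted p = 0.0236). This 1 of 17 is near the 5.7% of all genes called lower in 15 libraries. The median of this list was -0.21 in 16 libraries and -0.12 in 15, and that of the pericentral list -0.34 and -0.19.

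**Figure D3:**
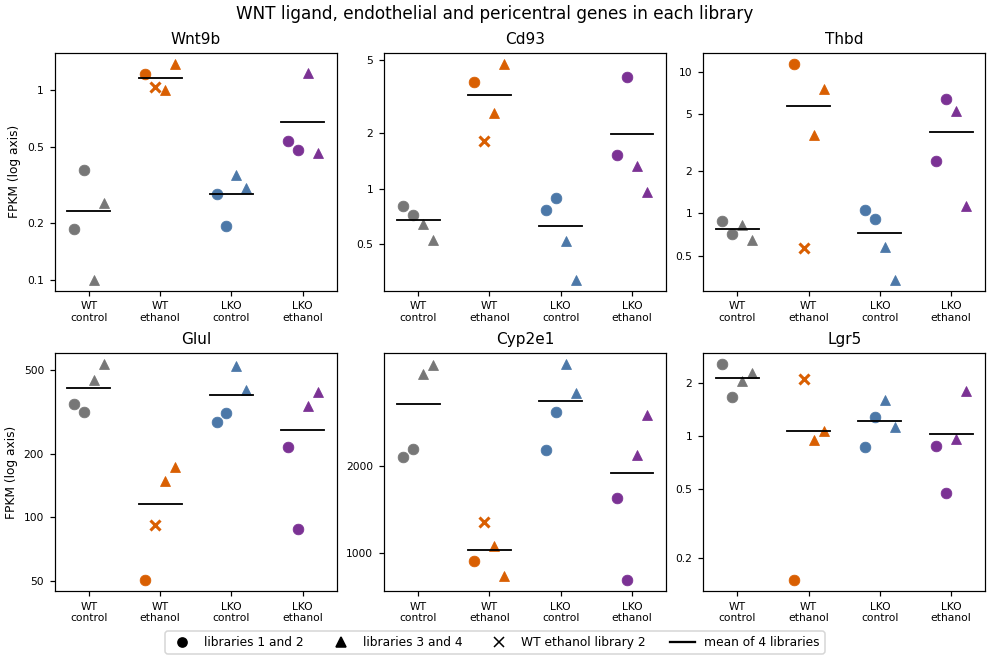
FPKM of the WNT ligand Wnt9b, the endothelial genes Cd93 and Thbd and the pericentral genes Glul, Cyp2e1 and Lgr5 in each library (log axis, a separate scale for each gene), by genotype and diet. Circles are libraries 1 and 2, triangles are libraries 3 and 4, the cross is WT ethanol library 2, and the line is the mean of the 4 libraries. Wnt9b and Cd93 lie higher on ethanol than on the control diet in both genotypes, and Glul and Cyp2e1 lie lower in WT.

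Other genes of the endothelium were counted to set the 10 markers among them. Of 17 kept sinusoidal endothelial genes other than the 10, 0 were called in 16 libraries in the comparison of diets averaged over genotypes and 5 had an unadjusted p under 0.05. In 15 libraries the 1 call was of Meis2, a transcription factor, at 0.32 (adjusted p = 0.0316), a gene that reached 1 FPKM in 6 ethanol and 0 control libraries and so passed the filter only where it was high. The share of all genes called higher was 4.59% in 16 libraries and 14.8% in 15. With the term for the division, a fit that called 23.3% of all genes higher and 9.32% lower, 15 libraries also gave the nuclease Dnase1l3 as lower (-0.53, adjusted p = 0.0486) and Cavin2, a protein of caveolae, as higher (0.51, adjusted p = 0.0291). Those farthest from 0 in 16 libraries were the Fc receptor Fcgr2b (-0.80, adjusted p = 0.203), Dnase1l3 (-0.70, adjusted p = 0.104), Ehd3 (-0.54, adjusted p = 0.315) and the mannose receptor Mrc1 (-0.53, adjusted p = 0.342). The median of this list was -0.05 in 16 libraries and 0.05 in 15. Of 18 kept genes of endothelium of all vessels, Cd93 and Esam were called higher in 16 libraries and Cd93, Esam and Ramp2 in 15, with medians of 0.26 and 0.28. These 3 of 18 are near the 14.8% of all genes called higher in 15 libraries.

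Cd93, which passed the filter through ethanol libraries only, is a glycoprotein of the endothelial surface. It stood at 0.801, 0.722, 0.645 and 0.525 FPKM in WT on the control diet and at 3.80, 1.82, 2.57 and 4.77 on ethanol. The LKO libraries stood at 0.763, 0.891, 0.517 and 0.319 FPKM on the control diet and at 1.53, 4.06, 1.33 and 0.961 on ethanol. In each genotype all ethanol libraries lay above all controls. Averaged over genotypes, the difference was 1.04 (SE 0.189, adjusted p = 0.003) in 16 libraries and 1.13 (SE 0.179, adjusted p = 0.000708) in 15, and its call was lost in 0 of the 16 leave-one-out fits. These fits kept the same genes, so they do not test how Cd93 passed the filter. The junction protein Esam differed by 0.54 (adjusted p = 0.0348), and its call was lost in 11 of these 16 fits (adjusted p up to 0.0816) and after scaling to equal sums (adjusted p = 0.166). Of 9 kept genes of continuous capillaries and large vessels, Thbd and Ly6c1 were called higher and Fabp5 lower in 16 libraries, and Cd34 also higher in 15, beside 4.59% of all genes higher and 3.19% lower in 16 libraries and 14.8% and 5.7% in 15. Ly6c1 (5 ethanol libraries) and Cd34 (4) reached 1 FPKM in 0 control libraries, and Thbd in 1, so that passing the filter favoured a difference between diets in these genes. For Cd34, WT ethanol library 2 (1.35 FPKM) was among these 4. In the other 15 libraries alone Cd34 would not have passed the filter, which was not applied again. The median of this list was 0.30 and 0.57. Thbd, the thrombin receptor thrombomodulin, rose by 1.45 (SE 0.344, adjusted p = 0.0161), a call lost with no filter (adjusted p = 0.059), and Ly6c1, a surface protein of capillaries that monocytes also carry, by 0.88 (SE 0.191, adjusted p = 0.00927). Fabp5, a fatty acid binding protein, stood at 7.72, 21.7, 2.88 and 29.2 FPKM in WT controls, at 4.41, 5.59, 4.25 and 5.01 in WT on ethanol, at 114.3, 92.8, 28.3 and 45.9 in LKO controls and at 12.3, 5.07, 10.5 and 6.45 in LKO on ethanol. The LKO groups were apart and the WT groups overlapped. Which cells gave the Fabp5 RNA was not tested. Its difference in 16 libraries was -2.77 in LKO (adjusted p = 0.0323), -1.09 in WT (adjusted p = 0.275) and -1.93 averaged (SE 0.38, adjusted p = 0.00488), and 0 of all genes were called in the interaction.

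The comparison of genotypes showed whether the markers differed between LKO and WT livers. No marker was called on either diet, averaged over diets or in the interaction, in the equally weighted fits of 16 or of 15 libraries. The share of all genes called was 0.00885% on the control diet, 0.0797% on the ethanol diet, 0.142% averaged over diets and 0% in the interaction in 16 libraries. In 15 libraries it was 0.0443%, 0.221%, 1.07% and 0%. By limma, 0 of the 10 markers had an unadjusted p under 0.05 in these 4 contrasts in 16 libraries, and in 15 libraries 1 had one on the ethanol diet and 1 in the interaction. On the control diet the differences between genotypes ranged from -0.33 to 0.32 over the 10 genes, and their 95% intervals reached from -1.17 to 1.62 in 16 libraries. On the ethanol diet they ranged from -0.37 to 0.77 in 16 libraries and from -0.58 to 0.24 in 15, with intervals reaching from -1.08 to 1.90 and from -1.34 to 1.23. Within the division of the libraries, with 1 WT ethanol library on the side of libraries 1 and 2, 9 of the 10 differences between genotypes on ethanol had opposite signs. They ranged from -0.14 to 0.63 within libraries 1 and 2 and from -1.23 to -0.01 within libraries 3 and 4, so that the pooled values join opposite directions. The interactions ranged from -0.31 to 0.81 in 16 libraries and from -0.83 to 0.28 in 15, and the smallest adjusted p among them was 0.927 and 0.968. Array weights, an alternative that gives each library a weight, were 0.278, 0.0418, 5 and 1.06 for WT ethanol libraries 1 to 4. The weighted mean of WT on ethanol was thus mostly the value of library 3. With these weights, 2 markers were called lower in LKO on the ethanol diet, Cdh5 (-0.76, adjusted p = 0.00854) and Stab1 (-0.77, adjusted p = 0.0313). In that fit 3465 of all genes were called on the ethanol diet, and 506, Cdh5 among them (-0.98, adjusted p = 0.0351), in the interaction. In the equally weighted fits a difference between the genotypes in the response of these genes to ethanol was not detected, and intervals of this width do not show that the genotypes were alike. In each genotype contrast on 1 diet, the libraries of the genotypes overlapped for every marker.

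The markers differed in how closely they varied together between libraries of the same group. Pearson correlations of the deviations from the group mean, over libraries that share the table's normalization but differ in depth, are given as a description. In 15 libraries they were highest for Stab2 with Kdr (0.91), Pecam1 with Wnt2 (0.84), Stab1 with Gata4 (0.78), Clec4g with Pecam1 (0.78), Clec4g with Wnt2 (0.78) and Kdr with Cdh5 (0.78). The lowest were Clec4g with Gata4 (-0.25) and Clec4g with Stab1 (-0.19). Lyve1 varied with Pecam1 (0.77) and Cdh5 (0.66) and hardly with Stab1 (0.19), Stab2 (0.22) or Gata4 (-0.05). WT ethanol library 2 moved these values, since with it Gata4 and Rspo3 stood at 0.93 in place of 0.69, and Pecam1 and Wnt2 at 0.22 in place of 0.84. With the mean profile of the 10, which includes the gene itself, each marker stood at 0.47 (Gata4) to 0.88 (Kdr and Cdh5) in 15 libraries. In 16 libraries Wnt2 stood at -0.13 and the other nine at 0.64 to 0.94. The division of libraries 1 and 2 from 3 and 4 was not removed from these deviations, and Lyve1, Clec4g, Kdr, Pecam1 and Wnt2 were higher in libraries 1 and 2 than in 3 and 4 of both control groups. Its part in the correlations was not tested. Outside the markers, the genes nearest to the mean profile of the 10 in 16 libraries were Bmp2 (0.97), Mylip (0.97), Hnrnpr (0.97), Ddah1 (0.96) and Adgrf5 (0.96). In 15 libraries they were Lhfpl2 (0.97), Pip4k2a (0.96), Epb41l2 (0.94), Arrb1 (0.94) and Abcg3 (0.94), so that the 2 sets shared no gene.

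**Figure D4:**
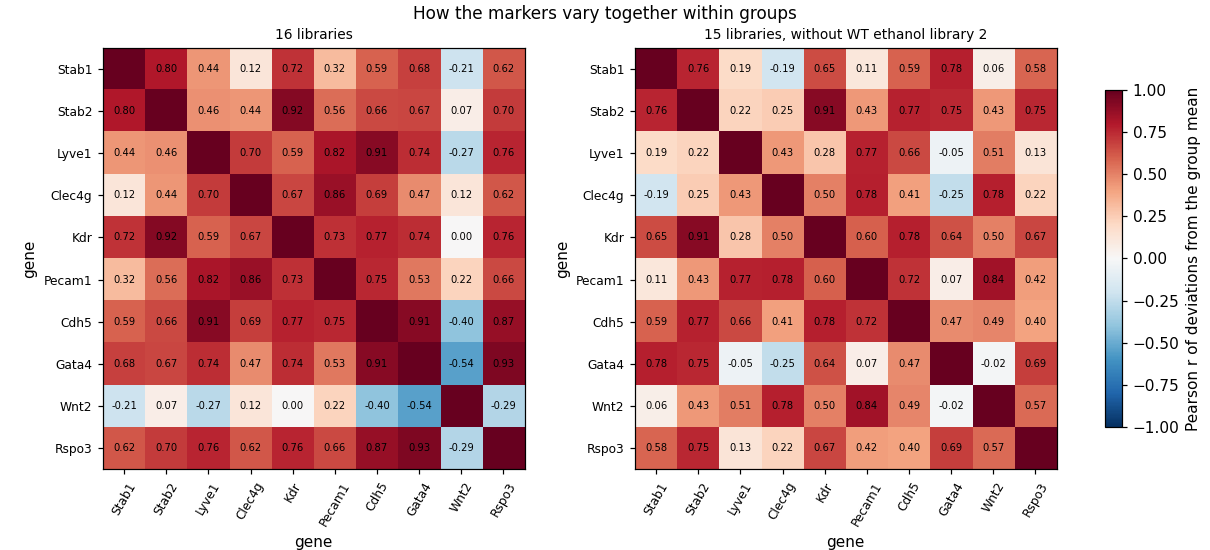
Pearson correlation between the markers of the deviations of log2(FPKM + 1) from the group mean, over 16 libraries and over 15 without WT ethanol library 2. Red is a positive and blue a negative correlation, from -1 to 1. Stab2 and Kdr are alike in both panels (0.92 and 0.91), and Wnt2 turns from -0.54 to -0.02 with Gata4 and from 0.22 to 0.84 with Pecam1.

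Ratios of FPKM within a library put the markers on a common footing in each liver. Lyve1 over Stab2 was 0.344 to 0.986 in the 8 control libraries and 1.47 to 8.51 in the 7 ethanol libraries other than WT ethanol library 2, in which it was 0.437. Lyve1 over Pecam1 was 0.584 to 1.19 in the controls and 1.80 to 3.79 in the same 7 ethanol libraries, and 0.409 in WT ethanol library 2. The controls and these 7 libraries did not overlap in either ratio. Wnt2 over Stab2 was 0.115 to 0.278 in the controls and 0.264 to 0.669 in the 7, and 1.56 in the library left out. Clec4g over Cdh5 was 3.43 to 12.9 in the controls and 1.27 to 5.61 in the 7, so that the diets overlapped.

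Markers of other liver cells were summed in the same libraries. The calls among them stand beside the shares of all genes given above, which in 15 libraries averaged over genotypes were 14.8% higher and 5.7% lower. The 10 macrophage markers summed to 205.2 to 543.2 FPKM in WT controls, 342.4 to 682.7 in WT on ethanol, 185.1 to 672.3 in LKO controls and 131.6 to 697.8 in LKO on ethanol, and Marco was the 1 called higher, in WT in both fits and averaged over genotypes in 15 libraries. The Marco call in WT was lost in 9 of the 16 leave-one-out fits and 5 of the 14 other alternatives. The 9 stellate cell markers summed to 106.0 to 209.2, 110.8 to 281.8, 121.2 to 200.1 and 161.8 to 219.9 FPKM in the same order, with Des called higher in WT and averaged over genotypes in both fits, and Pdgfrb too in 15 libraries. The averaged Des call was lost in 12 of the 16 leave-one-out fits and 6 of the 14 other alternatives, and its call in WT in 5 and 6. The 7 hepatocyte markers summed to 61277 to 75825 FPKM in WT controls, 44001 to 75508 in WT on ethanol, 57377 to 75394 in LKO controls and 56359 to 73460 in LKO on ethanol. These ranges overlapped between the diets in both genotypes. In 15 libraries, averaged over genotypes, 1 hepatocyte marker was called higher and 1 lower (Cps1 and Ttr), and the red blood cell marker Alas2 was called lower. The 5 red blood cell markers summed to 2160 FPKM in WT ethanol library 2 and to 100.3 to 286.1 in the other 3 of its group. The 10 endothelial markers themselves summed to 21.4 FPKM in that library, and to 40.3 to 111.1 in the other 15. Of 6 cholangiocyte, 6 lymphocyte and 4 neutrophil markers, 2, 2 and 3 passed the filter, of which Sox9 and Retnlg were called higher averaged over genotypes in both fits, and Spp1 lower in 15 libraries. The 4 neutrophil markers summed to a median of 2.76 FPKM in WT controls, 8.82 in WT on ethanol, 3.87 in LKO controls and 13.8 in LKO on ethanol, and the ranges overlapped between diets (0.938 to 6.11 and 2.58 to 11.3 in WT, 1.5 to 5.06 and 2.84 to 20.3 in LKO). No marker in these lists was at 0 in all 16 libraries. The part of other cell types in the differences of the 10 genes was not tested.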

How the data were processed

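Total RNA of liver was sequenced in 16 libraries, and the authors deposited FPKM values per gene in 1 table of 35275 gene IDs. STAR 2.6.1, fastp, HTSeq, DESeq2 and the build mm10 are named in the submitters' processing notes, and whether counting used strand is not given in the sources used here. Low values were whole multiples of the value of 1 read (100% of values within 0.1 reads), which gave 9886968 to 24768539 reads per library and allowed a count-based alternative (voom).

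Genes with FPKM of at least 1 in at least 4 libraries (11298) were fitted as log2(FPKM + 1) with limma 3.58.1 in R 4.3.3, with 4 group means, a trended prior and 12 residual degrees of freedom. Contrasts were two-sided, p-values were Benjamini-Hochberg adjusted over all genes kept, and exact permutation tests over libraries were two-sided. The fit was repeated without WT ethanol library 2. This fit and the leave-one-out fits used the same 11298 genes, and the filter was not applied again. Alternatives were the pseudocount, the filter, 3 scalings, array weights, voom, a term for the division of the libraries and leaving out each library, and the 3 scalings without WT ethanol library 2 were chosen after seeing the data. The division was taken from the within-group variation of these same libraries. The script was tested on simulated data.

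The 10 markers and all gene lists were chosen with earlier results of these data known. Named genes were the 10 markers, Zfp36l1, in each list the genes called or otherwise at most the 4 with the greatest difference, and the 5 genes nearest to the markers' mean profile. 3' untranslated regions came from GENCODE (GRCm38) and promoters from RefSeq (GRCm38.p6).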

Additional observations from a re-analysis of the deposited data

Results flagged for a closer look

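In each of 40 groups of 4 libraries (10 markers in 4 groups), the gap between the highest or lowest library and its neighbour was compared with the range of the group, by Dixon's test at the 95% level. Stab1 in LKO on ethanol had its highest library at 7.41 FPKM, far above the other 3 (gap over range 0.862). Lyve1 in LKO on ethanol had its highest library at 40.6 FPKM, likewise far above the other 3 (gap over range 0.892). The 2 flags among 40 groups are about what chance gives, which flags about 1 group in 20. The Stab1 value came from LKO ethanol library 4 and the Lyve1 value from LKO ethanol library 2. Without the latter, the averaged ethanol difference of Lyve1 was 1.53 in log2(FPKM + 1) and the limma adjusted p was 0.052.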

How the results depend on the processing

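No paired analysis was possible from the labels, which state no pairs and give each library a title number of its own. Some title numbers are adjacent across diets, but the labels do not say that they mark pairs, and no fit was blocked on them. The fit with a term for the division of the libraries is not a paired fit. Values here are limma calls at an adjusted p under 0.05 and log2 differences. Over the 30 ethanol differences of the markers, 14 other settings left 349 values with the same direction and side of the threshold, 9 lost a call, 42 gained one and 20 reversed. Leaving out each library gave 456, 5, 7 and 12. Equal sums moved the median of all genes in WT to -0.15, and leaving out WT ethanol library 2 moved it to 0.17. The cause of these changes was not tested. Depth was lowest for Rspo3 (3 reads) and Gata4 (16 reads) in WT ethanol library 2, and Wnt2 had 29 to 145 reads per library.

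Genes called for ethanol in WT (472) came to 283 with no filter, 932 with quantile normalization, 242 with equal sums, 732 with the median of ratios, 4334 with array weights, 776 with a term for the division of the libraries, and 2229 with this term and without WT ethanol library 2. Without that library they came to 1098 (quantile), 954 (equal sums) and 904 (median of ratios), and leaving out each library gave 146 to 1071. In LKO (48) the counts in the same order were 18, 105, 28, 105, 869, 95, 1206, 501, 389 and 525, with 26 at FPKM of at least 0.1 and 6 to 409 on leaving out each library. Averaged over genotypes (879) they were 1452 (quantile), 509 (equal sums), 1324 (median of ratios), 4147 (array weights), 1389 (division term), 3684 (division term without the library), and 2255, 2148 and 2212 (the 3 scalings without it), with 519 to 2312 on leaving out each library.

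Genes called between genotypes on the control diet (1) came to 2 (quantile), 260 (array weights), 9 (division term without the library), and 9, 5 and 9 (the 3 scalings without it), with 1 to 5 on leaving out each library. On the ethanol diet (9) they came to 3 (no filter), 3465 (array weights), 5 (voom), 178 (division term without the library), 27 (equal sums without it) and 5 (median of ratios without it), with 1 to 387 on leaving out each library. In the interaction (0) they came to 506 with array weights and 0 to 6 on leaving out each library. Averaged over diets (16) they came to 5 (no filter), 8 (FPKM of at least 0.1), 31 (median of ratios), 3848 (array weights), 10 (voom), 1255 (division term without the library), and 62, 86 and 103 (the 3 scalings without it), with 8 to 121 on leaving out each library.

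Markers called for ethanol in WT (1) came to 0 with no filter, equal sums, the median of ratios and voom, 6 with array weights, 4 with the division term without the library, and 2, 3 and 2 with the 3 scalings without it, and leaving out each library gave 0 to 3. In LKO (0) they came to 2 with array weights, 2 with the division term without the library and 1 with each of the 3 scalings without it, and 0 to 1 on leaving out each library. Averaged over genotypes (2) they came to 1 with no filter and with equal sums, 7 with array weights and with the division term without the library, and 5 with each of the 3 scalings without it, and 1 to 6 on leaving out each library. Array weights called 2 markers between genotypes on the ethanol diet and 1 in the interaction, where leaving out each library gave 0 to 0.

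Reversed differences of Stab1 in WT (0.006) were -0.034 and -0.013 with pseudocounts of 0.1 and 0.5, -0.137 with equal sums, -0.059 with the median of ratios and -0.051 with voom, and -0.386 to 0.31 on leaving out each library. Averaged, Stab1 was 0.181 with array weights, 0.008 with the division term and 0.056 with equal sums, both without WT ethanol library 2, and -0.263 to 0.085 on leaving out each library. Rspo3 in WT (0.041) was -0.258 and -0.034 with pseudocounts of 0.1 and 0.5, -0.045 with equal sums, -0.085 with the median of ratios and -0.052 with voom, and -0.249 to 0.505 on leaving out each library. Gata4 in WT (-0.191) was 0.465 with array weights, 0.289 with the division term and without WT ethanol library 2, and 0.129, 0.373 and 0.132 with the 3 scalings without that library, and -0.481 to 0.334 on leaving out each library. Kdr in WT was 0.018 and Cdh5 in LKO -0.012 with array weights, and Cdh5 in WT was -0.023 to 0.855 on leaving out each library.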
